A study of Mus musculus with 2 samples.

Results

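The YAP pathway was followed through 10 genes in ovaries of mice given ulipristal or vehicle during ovulation: the coactivators Yap1 and Wwtr1, their DNA-binding partner Tead1, the regulators Lats2, Amotl2 and Ajuba, and the widely used target genes Ankrd1, Ccn1, Ccn2 and Axl. They were found by symbol among the array's probe sets that name exactly 1 gene, which gave 24 of 34945 such probe sets. The choice of genes was made with the difference between the treatments known, so the values below describe that difference and test nothing. The animals were immature wild type CD-1 mice, 24 to 28 days old, and all had 5 IU of PMSG, the gonadotropin of pregnant mare serum, followed after 48 h by 5 IU of the human chorionic hormone hCG. PMSG drives follicle growth and hCG, acting like luteinizing hormone, starts ovulation. One group then received oil vehicle and the other ulipristal acetate (also labelled CDB), a ligand that modulates the progesterone receptor, 2 h after hCG. Whole ovaries were collected at 11 h, counted from an injection that the labels do not name. The number of mice behind each sample is not given, and no vehicle ovary without hCG was analysed here. There was 1 array per treatment, so no standard deviation, p-value or test between treatments could be given, and every difference is between these 2 samples.

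In the Hippo pathway, the kinases STK3 and STK4 (MST) activate the kinases LATS1 and LATS2, which phosphorylate YAP and its relative TAZ, the product of Wwtr1, and hold them in the cytoplasm. Unphosphorylated YAP and TAZ enter the nucleus, bind TEAD transcription factors and switch on target genes. Several of these, such as Lats2 and Amotl2, encode inhibitors of YAP and TAZ themselves. The pathway responds to cell contact and to tension on the actin cytoskeleton, and in the ovary it is known for its part in granulosa cell proliferation and follicle growth. Messenger RNA arrays do not see the phosphorylation that sets YAP activity.

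Values are MAS5 signals, which combine the probes of a probe set into 1 brightness in arbitrary units. Both arrays had been scaled to the same trimmed mean of 150.001. Signals below a floor of 7.17 were set to it, and ratios are ulipristal over vehicle on the log2 scale. A probe set was taken as measured where its mean log2 signal was at or above that of a signal of 30.8. Each gene was read from its brightest probe set, and a fold of 2 or more was called a difference. All 10 genes and 19 of the 24 probe sets were measured, and the median log2 ratio over all 11364 measured genes was 0.09.

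The TEAD factors bind a short core, GGAATG, and the annotated promoters of 8 of the 10 genes are in the RefSeq table used (build GRCm38.p6, from 250 bases before to 50 after the start). The core was found, on either strand, in a promoter of all 8 of these genes, against 4481 of 27025 genes (16.6%) in the table as a whole. Several of the 8 were listed because they are known YAP targets, so their share is not independent of that choice. The sequences of Ankrd1 (chr19:36119795-36120094, minus strand) and Ccn1 (chr3:145649936-145650235, minus strand) are shown because these were the members past 2-fold, and that of Amotl2 (chr9:102717554-102717853, plus strand) because it is a target that carries the same core and did not reach 2-fold. They run 5′ to 3′ on the gene's strand, and capitals mark GGAATG or its reverse complement CATTCC.
Ankrd1 promoter: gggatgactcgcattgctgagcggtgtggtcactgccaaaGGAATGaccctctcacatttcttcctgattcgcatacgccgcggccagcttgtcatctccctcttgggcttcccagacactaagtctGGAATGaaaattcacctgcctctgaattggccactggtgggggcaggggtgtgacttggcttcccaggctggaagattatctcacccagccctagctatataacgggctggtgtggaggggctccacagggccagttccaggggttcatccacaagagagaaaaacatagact
Ccn1 promoter: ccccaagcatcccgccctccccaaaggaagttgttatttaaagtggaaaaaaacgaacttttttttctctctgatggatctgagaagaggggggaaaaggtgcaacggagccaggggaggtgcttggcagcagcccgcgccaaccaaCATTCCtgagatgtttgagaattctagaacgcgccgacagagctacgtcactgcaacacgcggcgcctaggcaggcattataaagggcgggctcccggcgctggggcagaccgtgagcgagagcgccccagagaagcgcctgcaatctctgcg
Amotl2 promoter: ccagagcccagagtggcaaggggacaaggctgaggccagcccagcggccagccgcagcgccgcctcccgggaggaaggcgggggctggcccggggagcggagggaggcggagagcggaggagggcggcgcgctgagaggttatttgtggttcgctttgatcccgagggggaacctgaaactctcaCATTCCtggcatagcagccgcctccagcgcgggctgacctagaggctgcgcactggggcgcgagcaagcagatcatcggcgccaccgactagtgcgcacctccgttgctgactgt

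Ankrd1 held the core 210 and 123 bases before its start site, and Ccn1 and Amotl2 held it on the opposite strand 103 and 65 bases before theirs. The core also stood in the promoters of Yap1, Wwtr1, Ajuba, Axl and the second of the 2 Lats2 starts. Ccn2 and Tead1 had no promoter sequence to search. Whether the core has a part in the ratios was not tested. The 10 promoters belong to 8 genes, and the 2 of Wwtr1 overlap and share 1 match. Per promoter, the core was in 9 of 10 against 14.7% of all 32851, and the median GC content was 61.0% against 52.7%. In related gene lists it was in 4 of 17 Hippo genes, 4 of 6 TEAD and VGLL genes, 2 of 10 genes of a target signature, 3 of 11 family relatives and 5 of 14 MRTF/SRF genes. The AP-1 element TGANTCA, the cyclic AMP response element TGACGTCA, the CArG box of serum response factor and the full palindromic element of the progesterone and glucocorticoid receptors were in 0 of the 10 promoters, against 7.81%, 1.79%, 1.63% and 0.0091% of all promoters. The receptor hexamer TGTTCT, part of the full element, was found once, in Ajuba, against 19.0% of all promoters. These matches are letters within 300 bases and describe the windows, not binding.

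**Figure D1:**
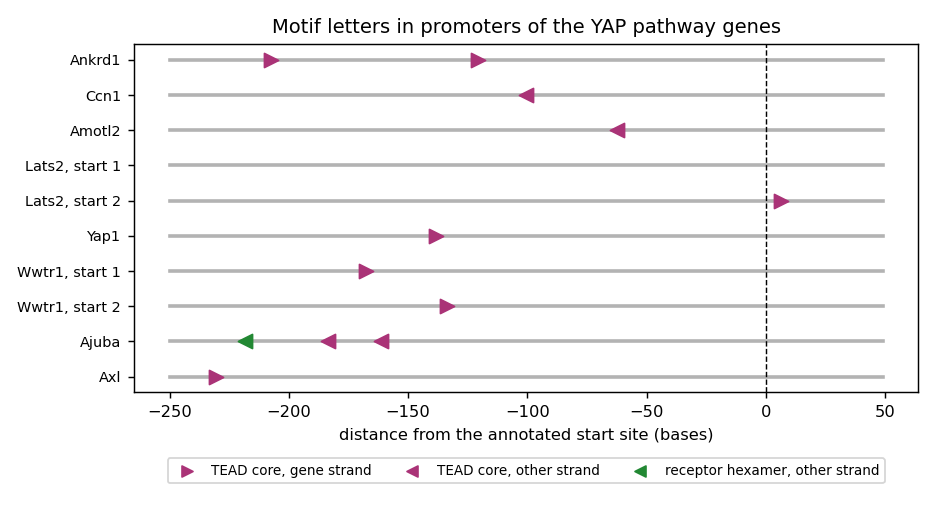
Matches to the TEAD core and to the receptor hexamer in the 10 promoters of 8 genes, by distance from the annotated start site in bases, with the triangle pointing along the strand of the match. Each of the 8 genes has a promoter with at least 1 TEAD core, and the first Lats2 start has none.

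Among the target genes, Ankrd1 and Ccn1 were much lower in the ulipristal ovaries, Ccn2 was close to 2-fold lower, and Axl and Amotl2 were slightly higher. Past 2-fold were 2 of the 10 genes on the lower side and 0 on the higher, where 1.56% of all measured genes were lower and 3.34% higher by that much. The genes were chosen on this contrast, so nothing is read from that count. The log2 ratio was below 0 for 7 members and above 0 for 3, with a median of -0.28. Of all 11364 measured genes, 4546 were below 0 and 6818 above. Nothing is read from the sign counts of the members either.

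Ankrd1 encodes an ankyrin repeat protein that is best known in heart and skeletal muscle, where it sits on the sarcomere and enters the nucleus, and it is 1 of the most used readouts of YAP activity. Its brightest probe set (1420992_at) read 251 on the vehicle array and 5.04, below the floor, on the ulipristal array. The second (1420991_at) read 145 and 11.2, above the floor on both. The 2 probe sets thus went the same way, by at least 35.1-fold and by 13.0-fold. Both ulipristal signals were below the filter signal of 30.8, so both probe sets passed the filter only through the vehicle array. At this floor Ankrd1 had the lowest ratio of all 11364 measured genes, but its signal with ulipristal is too dim for the size or the rank to be exact. With the floor raised to the 50th percentile the log2 ratio was -3.01 and 6th from the lowest, and with 50 added to every signal it was -2.45 and 8th. With the filter raised to the 75th percentile Ankrd1 did not count as measured.

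Ccn1, also called Cyr61, encodes a secreted matricellular protein that binds integrins and acts in wound repair and vessel growth. Its brightest probe set (1416039_x_at) read 1589 with vehicle and 315 with ulipristal. The others read 582 and 207 (1438133_a_at), 355 and 66.3 (1442340_x_at), and 336 and 74.5 (1457823_at). All 4 probe sets were well above the floor on both arrays and lower with ulipristal, by 5.05-fold, 2.81-fold, 5.35-fold and 4.51-fold. The x in an ID marks probes that can bind other transcripts, and without such probe sets the gene is read from the one with the smallest difference, 2.81-fold. Ccn1 stood 17th from the lowest of all measured genes, and 2 of the 1136 genes in its signal decile had a ratio as low, itself included. As the members were chosen on this contrast, nothing is read from ranks or shares of this kind for any member.

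Ccn2, also called Ctgf, is a close relative of Ccn1 that acts with TGF-beta in matrix production and is made by granulosa cells. Its only probe set (1416953_at) read 2258 and 1148, so that it was 1.97-fold lower, just short of 2-fold. It passed 2-fold after median centring, at a log2 ratio of -1.03, and lay between -0.98 and -0.87 under the other settings. A ratio as low or lower was found in 1.62% of measured genes. Of the remaining members of the CCN family, Ccn4 read 127 and 123 on its brightest probe set, with log2 ratios of -0.04 and -0.65 over 2, Ccn5 read 251 and 228, and Ccn3 and Ccn6 were too dim to be measured.

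Axl, a receptor tyrosine kinase that binds the ligand GAS6 and takes part in the clearance of dying cells, is a YAP target in several human cancer lines. It read 740 with vehicle and 923 with ulipristal, a log2 ratio of 0.32, the highest of the 10 genes. A second probe set, marked x, lay below the floor on both arrays. The related receptors Mertk and Tyro3 read 153 and 158, and 31.5 and 61.7. Tyro3 was 1.96-fold higher at signals close to the limit of measurement, with log2 ratios of 0.97 and 1.09 over 2 probe sets.

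**Figure D2:**
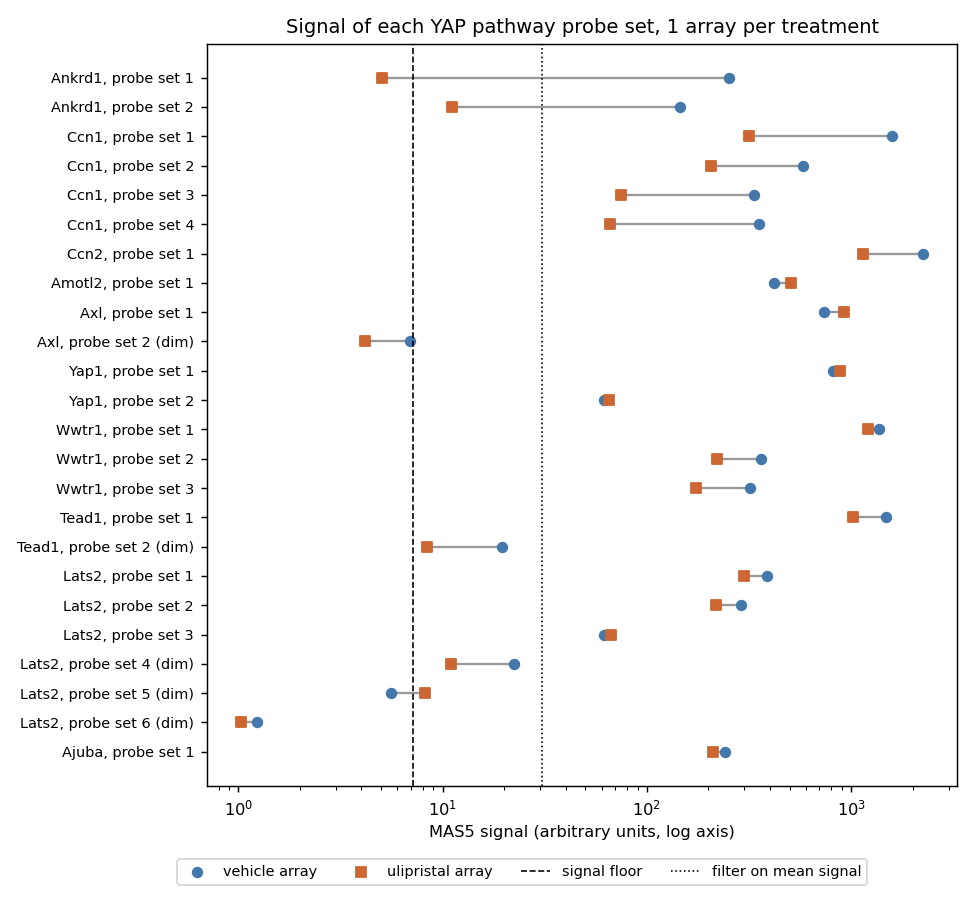
MAS5 signal (arbitrary units, log axis) of each of the 24 probe sets on the vehicle array (circles) and the ulipristal array (squares), with the floor and the filter on mean signal as vertical lines. Both Ankrd1 and all 4 Ccn1 probe sets are far to the left with ulipristal, while the symbols of Yap1 nearly overlap.

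Of the coactivators, Yap1 differed little and Wwtr1 was lower on all of its probe sets without reaching 2-fold. Yap1 read 812 and 880 on its brighter probe set and 61.7 and 65.2 on the dimmer one, with log2 ratios of 0.11 and 0.08. Its ratio was near the middle of all measured genes, 52.6% of which were at or below it. Wwtr1 encodes TAZ, the second coactivator, and its probe sets did not give 1 answer. The brightest read 1371 and 1206, a 1.14-fold difference, whereas the others read 364 and 219, and 319 and 173, or 1.66-fold and 1.84-fold lower. The 2 with the larger difference carry an a in their IDs, which marks probes shared by several transcripts of the gene, and whether the transcripts differ was not tested.

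Tead1, a TEAD factor that carries YAP and TAZ to DNA, read 1483 with vehicle and 1017 with ulipristal, 1.46-fold lower, and 5.32% of measured genes were as low or lower. Its second probe set was too dim to be measured (19.5 and 8.39). Of the other TEAD genes, Tead2 read 155 and 245, 1.58-fold higher, Tead3 read 59.4 and 63.1, and Tead4 was too dim. No member of the family reached 2-fold on a measured probe set. Among the vestigial-like cofactors, which bind TEAD factors in the place of YAP, Vgll3 read 674 and 319, 2.11-fold lower on its brightest probe set, with log2 ratios from -1.08 to -0.50 over 3. Vgll4 read 147 and 161, and Vgll1 and Vgll2 were too dim.

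The inhibitors of YAP also stayed within 2-fold. Lats2, the kinase that phosphorylates YAP and is itself a YAP target, had 6 probe sets, of which 3 were measured. These read 387 and 300, 290 and 219, and 61.6 and 66.5, with log2 ratios of -0.37, -0.41 and 0.11. The 2 brighter ones were thus lower to a like degree and the dimmest measured one was not. A further probe set names both Xpo4 and Lats2 (95.1 and 114.0) and was left out by the rule. Its relative Lats1 read 676 and 663.

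Amotl2, an angiomotin-like protein that tethers YAP at cell junctions and is a YAP target in its own right, read 417 with vehicle and 510 with ulipristal, 1.22-fold higher. Its relatives Amot and Amotl1 read 176 and 190, and 555 and 502. Ajuba, a LIM-domain protein that binds and restrains LATS kinases, read 241 and 210, 1.15-fold lower. Its relatives Limd1 and Wtip differed by 1.02-fold and 1.04-fold. By brightest probe set, Amotl2 thus had the largest difference among the 6 genes of the angiomotin and Ajuba families.

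**Figure D3:**
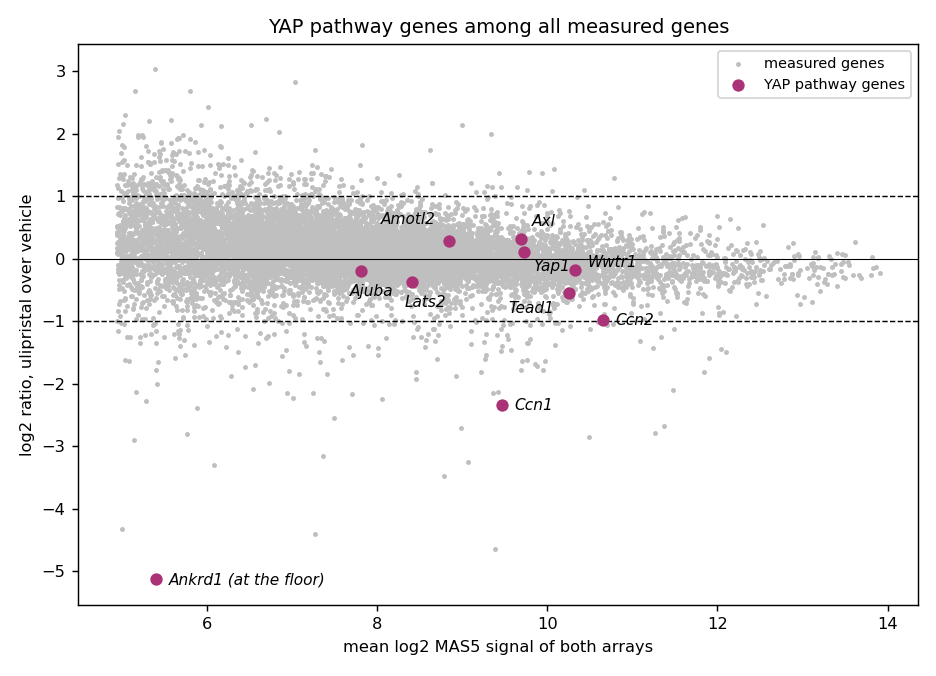
Log2 ratio of ulipristal over vehicle against the mean log2 MAS5 signal of both arrays for all 11364 measured genes (grey) and the 10 YAP pathway genes (labelled), with dashed lines at 2-fold. Ankrd1 is drawn with its ulipristal signal at the floor, which sets its height, Ccn1 lies far below the cloud at higher signal, and Ccn2 touches the 2-fold line.

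The rest of the Hippo pathway was read from a list of 22 upstream regulators and kinases, of which 21 had a single-gene probe set and all 21 were measured. Of all measured genes, 1.56% were 2-fold lower and 3.34% were 2-fold higher. In this list none (0) was 2-fold lower and 1 was 2-fold higher, with 11 below 0 and 10 above and a median log2 ratio of -0.03. The higher one was Taok2, a kinase that acts above STK3 and STK4, at the low signals of 59.9 and 140, and it was short of 2-fold with 50 added to every signal. The scaffold Scrib, which marks basolateral membranes, was next at 101 and 195. Sav1, the adaptor of STK3 and STK4, had the lowest ratio of the list and read 1824 and 1199, 1.52-fold lower, with log2 ratios of -0.61 and -0.66 over 2 probe sets. Stk3 had no single-gene probe set in the annotation used and is not analysed here.

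Further target genes were taken from a YAP and TAZ signature derived in human cancers, without the members. Of 16 such genes 14 were measured, 2 passed 2-fold on the lower side and 1 on the higher, and the median was 0.21 (log2), above that of all measured genes. The share of all measured genes past 2-fold was 1.56% on the lower side and 3.34% on the higher. F3, tissue factor, which starts blood coagulation, read 1664 and 174, 9.53-fold lower on its only probe set. Nt5e, the ectonucleotidase CD73 that makes adenosine, read 134 and 56.8, 2.37-fold lower. The higher one was Arhgef17, which read 104 and 211, or 2.02-fold, and fell short of 2-fold after median, quantile and lowess centring. Among the 14, 9 lay above 0, among them Gadd45a (382 and 490), Ccdc80 (979 and 1313) and Ptpn14 (261 and 327), and 5 lay below 0. With the members taken out, the 14 genes are only a part of the signature. Whether they follow YAP in the ovary was not tested. Of all 11364 measured genes 6818 also lay above 0, so the count above 0 is not particular to the signature.

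Ccn1 and Ccn2 are also known targets of serum response factor with its actin-regulated cofactors MRTF-A and MRTF-B. Of 16 factors and cytoskeletal targets on that list, all were measured, 0 passed 2-fold in either direction by brightest probe set, and the median log2 ratio was 0.06. The measured probe sets of Itga5 ranged in log2 ratio from -1.35 to 0.22. Vcl, the focal adhesion protein vinculin, had the lowest ratio, with 3432 and 2140 (1.60-fold lower). Cnn1, a calponin of smooth muscle, had the highest, with 371 and 635 (1.71-fold higher). Srf itself read 304 and 234, and Mrtfa and Mrtfb differed by 1.03-fold each. Among 16 family relatives of the members, several of them also in the Hippo and TEAD lists, 12 were measured, 0 passed 2-fold and the median was 0.01. With 1.56% of all measured genes 2-fold lower and 3.34% higher, a count of 0 in lists of this size says little.

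**Figure D4:**
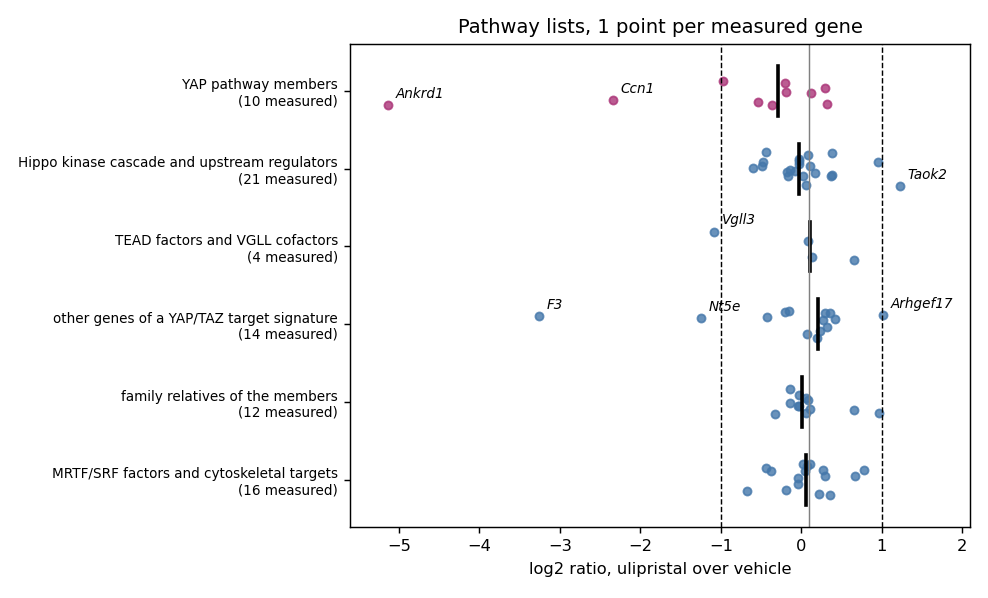
Log2 ratio of ulipristal over vehicle for each measured gene of the members and of 5 related lists, 1 point per gene, with the list median as a black bar, the median of all measured genes as a grey line and 2-fold as dashed lines. Low outlying points are Ankrd1, Ccn1 and F3, and the list medians lie between -0.28 and 0.21.

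With 2 arrays, the likeness of 2 genes can only be the closeness of their log2 ratios. The measured genes nearest to Ccn1, the lowest member above the floor, were Fosl1 (86.4 and 17.7), an AP-1 subunit, Dusp2 (136 and 25.9), a phosphatase of ERK-family kinases, and Rnf125 (579 and 122), a ubiquitin ligase. Fosl1 and Dusp2 were below the filter signal of 30.8 with ulipristal and passed the filter only through the vehicle array, so their ratios are not exact. Those nearest to Axl, the highest member, were Gstp1, Tle1 and Prss23, each 1.25-fold higher.

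Whole ovaries hold many cell types, and fewer cells of a type and less RNA per cell cannot be told apart in them. All markers of granulosa, theca and steroidogenic cells and oocytes on the lists were measured on the arrays. Of all 11364 measured genes 6818 lay above 0, with 1.56% lower and 3.34% higher by 2-fold. Granulosa markers had 6 of 7 above 0 and 3 past 2-fold higher, with sums of 11691 and 14732 and Amh at 1.62-fold lower. Theca and steroidogenic markers went both ways, with Hhip 4.67-fold lower, Tcf21 2.22-fold higher and sums of 18623 and 19552, and oocyte markers had 0 of 3 past 2-fold and sums of 586 and 693. The genes listed as cumulus markers, Has2, Ptx3 and Tnfaip6, were lower with ulipristal, with 3 of 3 below 0, 2 of them past 2-fold, and sums of 575 and 234. Oviduct markers were higher, with 6 of 6 above 0, 5 past 2-fold, and sums of 3825 and 6122. So were surface epithelium markers (6 of 6 above 0, 1 past 2-fold, sums of 1164 and 1804) and adipose markers (3 of 3 above 0, 1 past 2-fold, sums of 1827 and 2586), and macrophage markers had 4 of 4 above 0 with sums of 785 and 877. Smooth muscle and pericyte markers (6 of 7 above 0, sums of 16443 and 17998), stromal fibroblast markers (3 of 4 above 0, sums of 7944 and 10488) and endothelial markers (5 of 6 above 0, 2 past 2-fold, sums of 1007 and 1165) were not lower with ulipristal as sums. All marker counts and sums use the brightest probe set of each gene. Measured probe sets of 1 gene could differ, with log2 ratios from -1.29 to 0.25 for Pdgfra, -1.47 to 0.61 for Rgs5 and 0.34 to 1.92 for Col1a1. The oviduct sums were mostly Ovgp1 (3641 and 5642), short of 2-fold, and the other oviduct markers read 57.5 or less with vehicle. Of the markers past 2-fold, Foxj1 (19.1 and 75.1), Ccdc39 (27.4 and 72.9) and Tie1 (24.8 and 76.8) passed the filter only through the ulipristal array. So did Cidec (28.7 and 67.9), while Has2 (58.0 and 18.8) passed it only through the vehicle array. The part of these markers in the member values was not tested. Of skeletal muscle markers, Ckm, Myh4, Mb and Tnnt3 were too dim to be measured, with no signal above 18.7 on either array by brightest probe set, and Acta1 read 35.2 and 32.8.

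The medians of the spiked and ribosomal controls, too, were lower with ulipristal. The median log2 ratio was -1.27 over 3 features of 18S ribosomal RNA, -0.58 over 24 features of the poly-A spikes (from -0.83 to 0.20), and -0.25 over 18 features of the hybridization spikes (from -0.42 to -0.12). The signal at the 3′ end over that at the 5′ end was 1.20 with vehicle and 0.87 with ulipristal for Gapdh, and 2.40 and 1.87 for Actb. Their part in the member values was not tested.

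**Figure D5:**
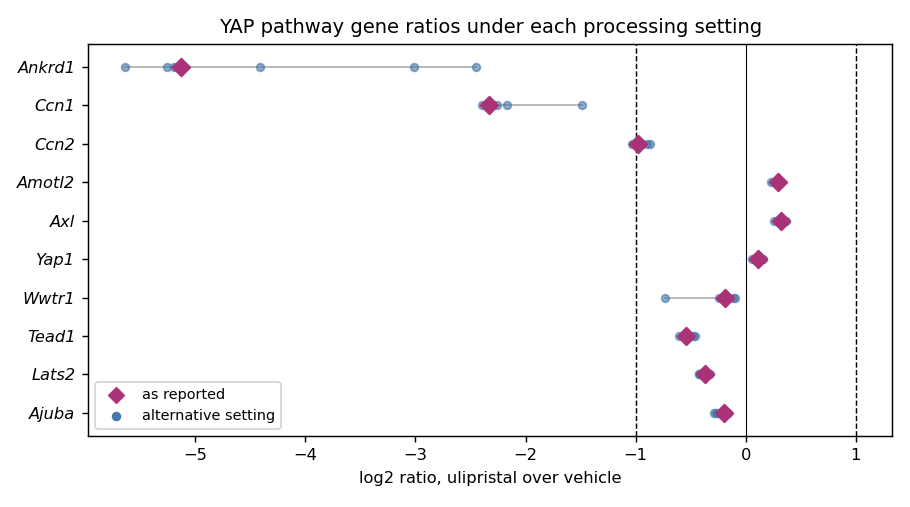
Log2 ratio of ulipristal over vehicle for each of the 10 genes as reported (diamonds) and under each alternative processing setting (circles), with dashed lines at 2-fold. Ankrd1 ranges from -5.64 to -2.45 and Ccn1 from -2.40 to -1.49, all past 2-fold, and no gene changes sign.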

How the data were processed

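RNA from whole ovaries of 1 vehicle and 1 ulipristal sample was hybridized to Affymetrix mouse arrays, per the labels' protocols. The authors deposited probe set intensities on a linear scale. MAS5 and version 1 of Affymetrix Expression Console are the tools in the submitters' processing notes, with no role given for either. No genome build was stated there. Leaving out 2% of values at each end, both arrays had a mean of 150.001, as global scaling gives, which hides any shift common to most genes. The number of arrays limits the precision.

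The arrays hold 45101 probe sets including 64 controls. The platform annotation gave 1 gene for 34945, several for 932 and no gene for 9160. Symbols were updated through gene identifiers, which matched RefSeq for 34741 probe sets. The floor was the 25th percentile of non-control values and the filter the median of their mean log2 signal, which left 11364 of 18193 genes. The calling steps were run on simulated data with the same noise at every signal. That checks the code and not how reliable the calls between these arrays are. The members, lists and settings were chosen with earlier results of these data known. All members are named, with the genes of each pathway list past 2-fold (or the 2 farthest from 0), the 3 genes nearest in ratio to the lowest member above the floor and to the highest, and relatives, markers and some further list genes chosen after their values were seen. Alternatives changed the normalization (median, quantile, or lowess with fraction 0.3), floor, pseudocount, filter, probe set choice and fold threshold. Promoter sequences are from RefSeq, and motifs were searched on both strands. The software was Python 3.11.15 with pandas 2.3.3, numpy 2.4.6, matplotlib 3.10.9 and statsmodels 0.14.6.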

Additional observations from a re-analysis of the deposited data

How the results depend on the processing

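No paired analysis was possible because each treatment had 1 array. All 99 values of member genes under the alternatives kept their sign, and 98 kept their side of 2-fold. The exception was Ccn2 after median centring, at -1.03. With the filter at the 75th percentile Ankrd1 was not measured and 1 member was at least 2-fold lower. The counts below are of list genes past the threshold. In the TEAD and VGLL list the count lower was 0 with a pseudocount of 50, with the median over probe sets and at 3-fold, and the count higher was 1 at 1.5-fold. In the Hippo list the count higher was 0 with the pseudocount, with the 75th percentile filter and at 3-fold, and 2 at 1.5-fold, where 1 gene was lower. In the target signature the count lower was 1 with the pseudocount, the 75th percentile filter and 3-fold, and the count higher was 0 under these, under median, quantile and lowess centring and with the median over probe sets. Among the relatives 1 gene was lower without a filter, and the count higher was 1 with the median over probe sets and 2 at 1.5-fold. In the MRTF/SRF list 1 gene was lower without s and x probe sets, and at 1.5-fold 1 was lower and 2 higher. List medians crossed 0 for the relatives (-0.047, -0.039 and -0.051 after median, quantile and lowess centring), the TEAD and VGLL list (-0.0055 and -0.018 after quantile and lowess centring) and the Hippo list (0.023 without s and x probe sets). Over all 11364 measured genes, 177 lower (1.56%) and 380 higher (3.34%) became 97 (0.85%) and 54 (0.48%) with the pseudocount. They became 520 (4.58%) and 1402 (12.3%) at 1.5-fold, and 57 (0.50%) and 60 (0.53%) at 3-fold. Without a filter 18193 genes counted, 460 lower (2.53%) and 1025 higher (5.63%). With the 75th percentile filter 7058 counted, 101 lower (1.43%) and 58 higher (0.82%). With the median over probe sets 1.44% were lower and 3.19% higher, and without s and x probe sets 1.61% and 3.56%. After median, quantile and lowess centring 1.80%, 1.75% and 1.79% were lower and 2.74%, 2.36% and 2.30% higher. Nothing is read from the list counts beside these shares. The share of called genes that were higher, 68.2%, was 57.4% after quantile and 56.2% after lowess centring. The cause of these shifts was not tested. The low ulipristal signal of Ankrd1 limits the size of its ratio.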

Other observations

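Several relatives of the members were too dim for any statement on their ratio. Ankrd2, a muscle relative of Ankrd1, read 20.5 with vehicle and 3.71, below the floor, with ulipristal, and Ankrd23, another relative, read 73.2 and 58.2 and was measured. In the target signature, Foxf2, a forkhead factor of mesenchyme, read 0.44 and 12.0, and Fjx1 read 19.9 and 25.3. The dim probe sets of Lats2 read 22.4 and 11.0, 5.59 and 8.21, and 1.24 and 1.03, so they gave no common direction.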
